A study of Mus musculus with 6 samples.

Results

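The circadian clock genes Arntl, Clock, Nr1d1, Nr1d2, Per1, Per2, Cry1, Cry2, Dbp and Tef were followed in tumors of the mouse hepatoma line Hepa1-6. They are 10 of the 27573 gene names on the array, and they carry 21 of its 41174 probes. They were chosen by name, after earlier results from the same tumors were known, so their change between the days is given as a description that supports nothing further. Female C57Bl/6 mice had received Hepa1-6 cells subcutaneously, and the tumors were taken after 10 days (tumors 302, 307 and 312) or 15 days (tumors 303, 313 and 318), each group with n = 3. Each tumor had 1 array, on which its RNA carried the dye Cy5, against a reference in Cy3 labelled as blood RNA of an untreated C57Bl/6 mouse. The labels give the day of removal and no hour of the day, and they do not say whether each tumor came from a separate mouse, so a p-value covers only the spread among these samples, which may in part be technical.

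The mammalian clock is a feedback loop of transcription. Arntl (BMAL1) and Clock encode the positive arm, a pair of factors that bind E-boxes and switch on the Per and Cry genes, whose products repress that same pair. A further loop runs through Nr1d1 and Nr1d2, which encode the nuclear receptors REV-ERB alpha and beta, repressors of Arntl. The PAR bZIP genes Dbp and Tef are outputs of the loop and encode activators that bind D-boxes. In liver and most other tissues, Arntl transcript peaks at a time of day at which Nr1d1, Dbp and Per transcripts are low.

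Promoter sequences show which of the loop's binding motifs lie next to the starts of these genes. RefSeq windows on GRCm38.p6, from 250 bases before to 50 after a start, were on hand for 9 members (14 windows). They were searched on both strands for the E-box CACGTG, the D-box (TTATGTAA, TTACGTAA or TTACATAA), the ROR and REV-ERB element TNGGTCA and the cAMP response element TGACGTCA. No match overlapped another motif. Matches are shown because they sit in genes of both arms, with the matching letters in capitals:
Arntl, chr7:113207531-113207557, plus strand, element 30 bases after a start: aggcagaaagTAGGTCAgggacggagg
Per1, chr11:69098773-69098798, plus strand, E-box 166 bases before a start: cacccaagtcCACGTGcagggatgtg
Cry1, chr10:85185099-85185124, minus strand, E-box 60 bases before the start: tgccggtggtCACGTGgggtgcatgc
Cry2, chr2:92434186-92434212, minus strand, reverse element 133 bases before the start: ccgacgctgcTGACCAAtggaacagag
Tef, chr15:81802536-81802561, plus strand, E-box 127 bases before a start: gctgtggctcCACGTGctgcagctgg
Tef, chr15:81811266-81811291, plus strand, E-box 138 bases before another start: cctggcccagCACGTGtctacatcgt
Tef, chr15:81811185-81811211, plus strand, reverse element 219 bases before that start: gggacgcgacTGACCAAaaaagaacag

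The E-box was thus found in 4 of the 14 windows, in Per1, Cry1 and Tef, and in 7.15% of all 32851 windows of the table. The ROR and REV-ERB element is shown for Arntl, Cry2 and Tef, and 11.0% of all windows held it. Neither the D-box (1.06% of all windows) nor the cAMP response element (1.79%) was found beside a member. The windows of Clock, Nr1d1, Nr1d2 and Dbp held none of these letters, which says nothing of sites elsewhere in those genes.

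The arrays were of like quality but for an area of lost signal on the array of day 10 tumor 312. Spots well above background made up 52.4% to 58.5% of an array in Cy5 and 47.5% to 52.8% in Cy3. Inside rows 155 to 357 and columns 23 to 65 of the array of tumor 312 lay 8465 spots (19.5%), and their median Cy3 signal was lower than the mean of the other 5 arrays by a log2 difference of -1.91. The arrays of each day shared a slide, so slide and day cannot be told apart. Hepatocyte and hepatoma markers were present in all tumors but, except for Gpc3, weak in tumor 313, where 4 of 8 were well above background. The erythroid markers measured, 3 of 3, were higher in the tumors than in the reference labelled blood, with a median log2 ratio of 3.76, which goes against that label. Macrophage and T cell markers had medians of 7.05 and 4.355. In Cy3, Alb, Afp, Foxa2, Ambp and Gpc3 were well above background on 6 arrays, F2 on 5, Apoa1 on 1 and Ttr on 0. In tumor 313 the log2 ratios of Alb, Afp and Foxa2 were -2.48, -4.75 and -5.71. Those of Ambp, F2, Ttr and Apoa1 were -0.99, 0.15, -0.19 and -0.26. Gpc3 stood at 5.135 there, against 4.73 to 5.48 in the other tumors. What RNA the reference held was not tested.

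**Figure D1:**
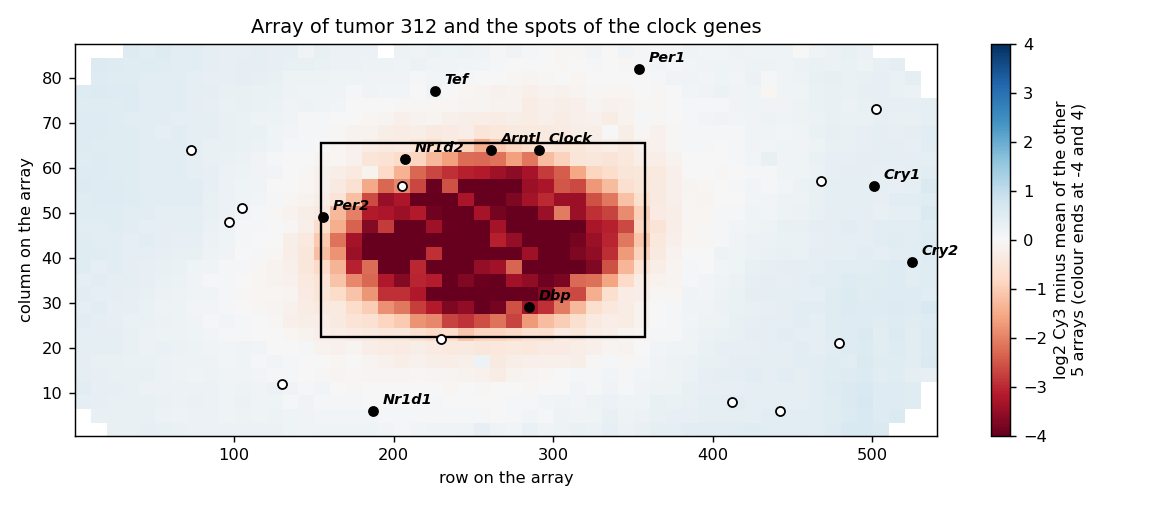
Signal of the array of tumor 312 by row and column. Colour gives the median log2 Cy3 signal of blocks of spots minus the mean of the other 5 arrays, and the box marks the lost area. Filled points are the probes that stand for a gene and open points the other probes. Dbp lies further inside the area than Arntl, Clock, Nr1d2 and Per2, which are near its edge. Nr1d1, Per1, Cry1, Cry2 and Tef lie outside it.

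A gene was represented by its brightest probe, and 5 of these 10 probes lay inside the box. The loss at each was measured on the array of tumor 312 as log2 Cy3 minus the mean of the other arrays. It was -3.34 for Dbp, -1.75 for Arntl, -1.11 for Clock and -0.98 for Nr1d2. Per2 stood at 0.08 there, although spots around it had a median of -0.48. In Cy5, the same measure was -2.75 for Dbp, -2.15 for Arntl, -1.16 for Clock, -0.15 for Per2 and 0.28 for Nr1d2. Changes without tumor 312 are therefore given for these genes, in the ratio and in each dye. None of the 21 probes was saturated or marked as an outlier on any array, and 14 of them were tested between the days. The other 7 were not well above background in Cy5 on any array.

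Across the members, Arntl stood higher at day 15, and Nr1d1, Nr1d2, Dbp and Tef stood lower, each by an absolute log2 change above 1. These 5 genes were also the members whose 3 values of one day lay wholly apart from the 3 of the other. Of all 15805 genes tested, 9.14% had days that did not overlap, and 3.16% had an absolute log2 change of at least 1. No member passed the test between the days (limma, Benjamini-Hochberg adjusted over all probes; smallest adjusted p = 0.113), and 0.0569% of genes did. At an unadjusted limma p under 0.05 there were 5 members, against 4.01% of genes. The median change over the 10 members was -0.72, and over all genes tested 0.02. In these tissue samples, fewer cells of a type and less RNA per cell cannot be told apart.

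**Figure D2:**
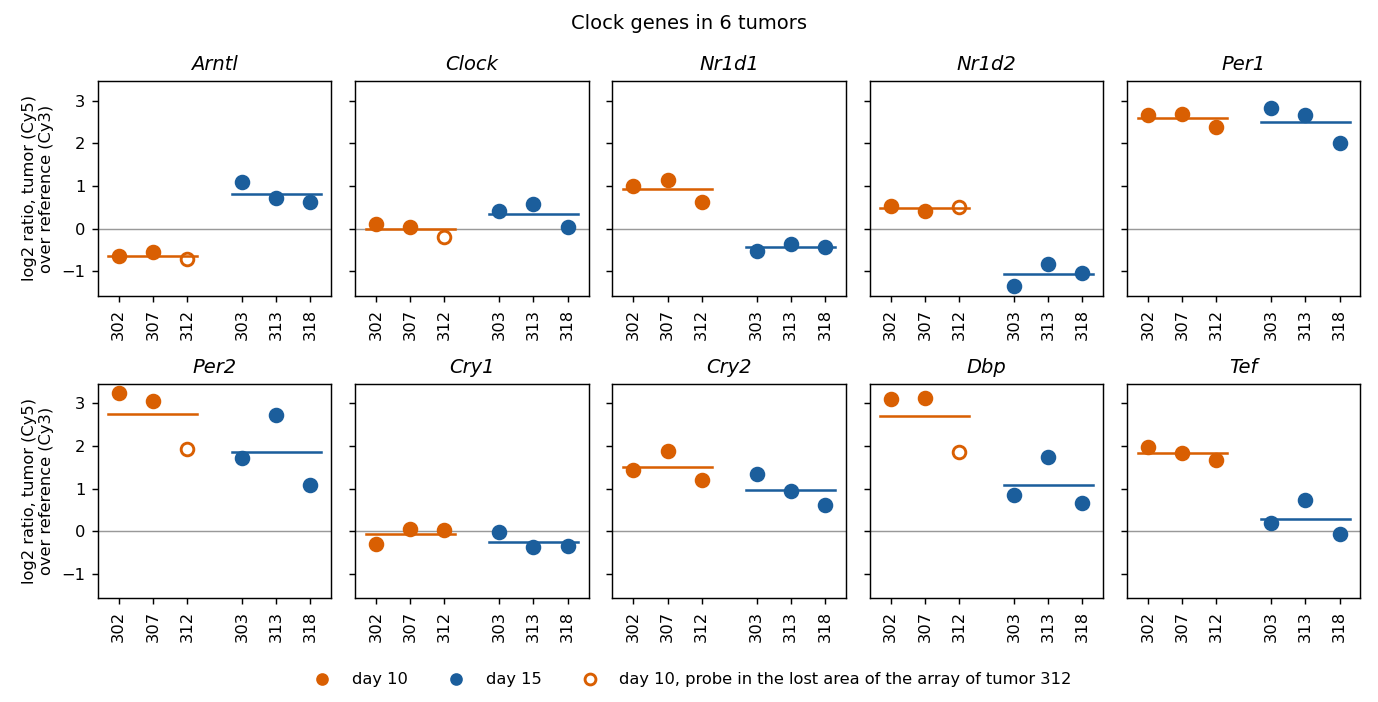
The log2 ratio of tumor (Cy5) over reference (Cy3) of each clock gene in the 6 tumors, with lines at the day means. Open points are values of tumor 312 from a probe in the lost area. Arntl is higher in every day 15 tumor than in any day 10 tumor, and Nr1d1, Nr1d2, Dbp and Tef are lower. The place of 0 depends on the scaling.

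In the positive arm, Arntl had log2 ratios of -0.63, -0.56 and -0.72 in day 10 tumors 302, 307 and 312. In day 15 tumors 303, 313 and 318 the log2 ratios were 1.10, 0.73 and 0.62. The gap between the days was far wider than the spread within a day. At this scaling the day 10 tumors lay below the reference and the day 15 tumors above it, whereas median centring without loess put the day means at -1.01 and -0.09, both below it. The mean log2 ratio went from -0.64 ± 0.08 (SD, n = 3) to 0.82 ± 0.25 (SD, n = 3), a change of 1.45 ± 0.17 (SE) or 2.74-fold, and 1.35% of genes had an absolute change as large. Without tumor 312 the change was 1.41.

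Clock, the partner of BMAL1, differed little between the days. Its representative probe gave log2 ratios of 0.11, 0.04 and -0.20 in the day 10 tumors, followed by 0.42, 0.58 and 0.05 in the day 15 tumors, and the days overlapped. A probe outside the lost area gave -0.08, -0.10 and -0.12 against 0.42, 0.45 and 0.01, where the days did not overlap. The change was 0.37 ± 0.19 (SE) with the representative probe and 0.39 ± 0.17 (SE) with that probe. The third tested Clock probe differed by 0.05 with overlapping days, so the probes of Clock disagree in size. Without tumor 312 the representative probe differed by 0.28. Median centring without loess also turned the sign of the representative probe, to -0.05.

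Of the REV-ERB receptors, Nr1d2 had log2 ratios of 0.52, 0.42 and 0.51 at day 10, against -1.35, -0.82 and -1.04 at day 15. The day 10 tumors lay close together, well above the day 15 tumors. The change was -1.55 ± 0.17 (SE), a 2.93-fold difference between the days, and -1.54 without tumor 312. With median centring in place of loess the change was -1.85 and passed the test (limma adjusted p = 0.033), and it did not pass under any other alternative tried.

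Nr1d1, whose probe lies outside the lost area, had log2 ratios of 0.999, 1.14 and 0.64 in the day 10 tumors, followed by -0.52, -0.36 and -0.43 in the day 15 tumors. Both receptors, genes on different chromosomes (11 and 14), thus stood lower at day 15, opposite to Arntl. At this scaling both went from above the reference to below it, but with median centring without loess Nr1d2 was below it at both days, with means of -0.08 and -1.92. The change of Nr1d1 was -1.36 ± 0.17 (SE), or 2.57-fold. The other 2 Nr1d1 probes were not well above background on any array and give no value.

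Among the PAR bZIP outputs, Tef had log2 ratios of 1.98, 1.84 and 1.68 at day 10, against 0.19, 0.72 and -0.06 at day 15. The lowest day 10 tumor stood well above the highest day 15 tumor, which was 313. The change was -1.55 ± 0.23 (SE), or 2.93-fold. A dimmer Tef probe, above background in Cy5 on the 3 day 10 arrays and on 0 of the day 15 arrays, gave -0.32, -0.32 and -0.29 against -0.90, -1.05 and -0.81. Its measured change was -0.61 ± 0.13 (SE), which has no exact size, since its day 15 signal was near background. This probe passed the filter through the day 10 arrays alone, so its direction adds no support to that of the representative probe. The 2 remaining Tef probes were not well above background in either dye.

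Dbp had log2 ratios of 3.11, 3.13 and 1.86 in the day 10 tumors, followed by 0.85, 1.74 and 0.67 in the day 15 tumors. The days did not overlap, but tumor 312, from a probe where its array had lost most signal, stood near day 15 tumor 313. The change was -1.61 ± 0.44 (SE) over all tumors and -2.03 without tumor 312. Dbp was the member with the largest absolute change in either case, but not under every alternative. With Cy5 alone its change was -1.53, against 1.78 for Arntl. Without tumor 307 it was -1.395, against -1.58 for Nr1d2.

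**Figure D3:**
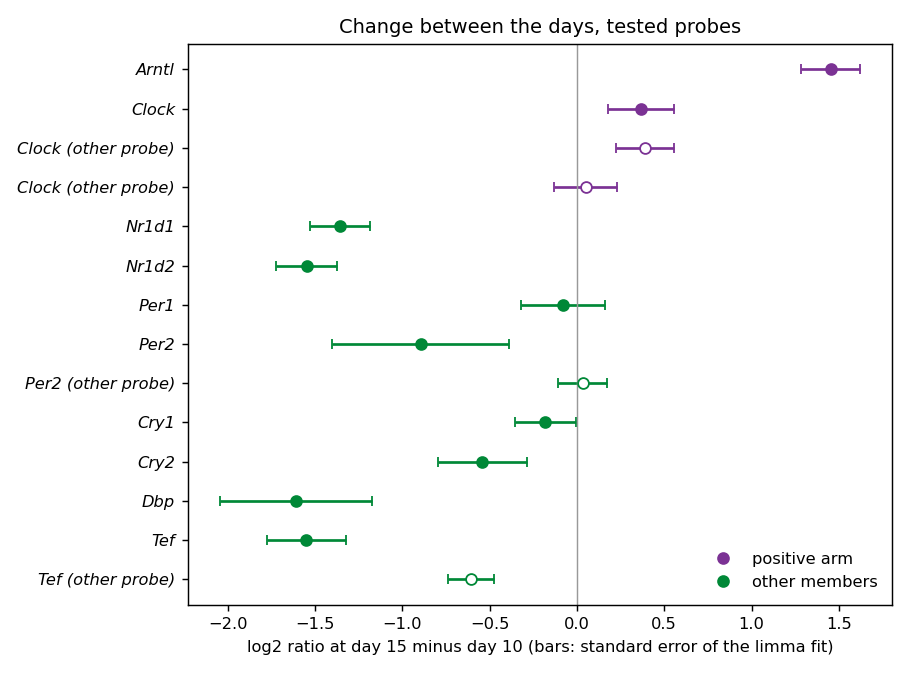
Change of the log2 ratio from day 10 to day 15 for the 14 tested probes of the clock genes, with the standard error of the limma fit. Filled points are representative probes and open points the other probes of a gene. The 3 Clock probes and Arntl lie above 0, and the representative probes of the other members lie below it.

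The Per and Cry genes encode the repressors of the loop, and their days overlapped. Per1 had log2 ratios of 2.67, 2.70 and 2.39 at day 10, against 2.84, 2.66 and 2.02 at day 15. The change of Per1, -0.08 ± 0.24 (SE), turned to 0.16 when tumor 318 was left out. Per2 had log2 ratios of 3.24, 3.06 and 1.94 against 1.72, 2.74 and 1.10. Within each day Per2 varied by more than a log2 unit, with tumor 312 low at day 10 and tumor 313 high at day 15. Its change was -0.90 ± 0.51 (SE), and its Cy3 signal was well above background on 2 of 6 arrays. Without tumor 312, whose probe lies in the lost area, the change was -1.30 and the days did not overlap. They did not overlap without tumor 313 either, at -1.34, and without tumor 318 the change was -0.52. The other Per2 probe, dim and also in the lost area, differed by 0.03.

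Cry2 had log2 ratios of 1.44, 1.89 and 1.20 in the day 10 tumors, followed by 1.33, 0.95 and 0.62 in the day 15 tumors, a change of -0.54 ± 0.26 (SE) with overlapping days. In Cy5 alone its days did not overlap, and the change was -0.84. Without tumor 312 they did not overlap in the ratio either, at -0.70. Cry1 had log2 ratios of -0.29, 0.06 and 0.03 against -0.03, -0.36 and -0.35. It was the dimmest representative probe, above background in Cy5 in 3 of 3 tumors at day 10 and in 1 of 3 at day 15, and its change was -0.18 ± 0.17 (SE).

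Set against each other, the mean log2 ratio of Arntl and Clock minus that of the other 8 members was -1.97, -2.04 and -1.74 in the day 10 tumors. It was 0.13, -0.25 and 0.02 in the day 15 tumors. Since each ratio is relative to the reference, these values give no order of the arms, only how their difference moved. It was 1.88 higher at day 15, and the tumors of a day lay close together. In log2 Cy5 signal alone the same difference was -0.26, -0.40 and -0.77 at day 10, against 1.92, 1.52 and 1.72 at day 15. In each arm a few genes carried this, Arntl in the positive arm and Nr1d1, Nr1d2, Dbp and Tef among the others. The members and their arms had been chosen with these values known, so no test is given.

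The log2 ratio joins 2 signals, and the difference between the days lay mainly in the tumor dye. After quantile normalization within each dye, Arntl had a log2 Cy5 signal of 9.69, 9.71 and 8.47 at day 10, against 11.34, 10.99 and 10.87 at day 15. Its log2 Cy3 signal stood between 10.77 and 10.88 on every array but that of tumor 312, where it was 9.48. Without that tumor, Arntl differed between the days by 1.37 in Cy5 and by 0.04 in Cy3. The same held for Nr1d2, with -1.54 in Cy5 and -0.08 in Cy3, and for Tef, with -1.54 and 0.01. Nr1d1 differed by -1.47 in Cy5 and by -0.16 in Cy3. Clock differed by 0.23 in Cy5 and -0.05 in Cy3, and Per2 by -1.11 and -0.05.

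Dbp was the exception in size, since without tumor 312 its Cy3 signal differed widely between the slides too. Smaller Cy3 differences were seen for Nr1d1 (-0.29), Per1 (-0.30) and Cry2 (-0.45) over all arrays. Their Cy3 signals were lower on every day 15 array than on any day 10 array. The log2 Cy5 signal of Dbp was 14.53 in tumors 302 and 307, 10.11 in tumor 312, and 11.27, 12.16 and 11.15 at day 15. Its log2 Cy3 signal was 12.22 and 12.19 on the arrays of tumors 302 and 307, 8.52 on that of tumor 312, and 11.06, 11.09 and 11.08 on the day 15 arrays. On the arrays without signal loss, both dyes were thus brighter at day 10, although the reference is described alike for all arrays. Without tumor 312 the change of Dbp was -3.01 in Cy5 and -1.13 in Cy3, while the other 9 members ranged from -0.20 to 0.04 in Cy3. The ratio of Dbp therefore shows a smaller change than its tumor signal. Over all genes, the Cy3 signal passed the test between the slides in 0 of 13933 genes (0%, limma adjusted p), and 212 had an unadjusted p under 0.05.

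**Figure D4:**
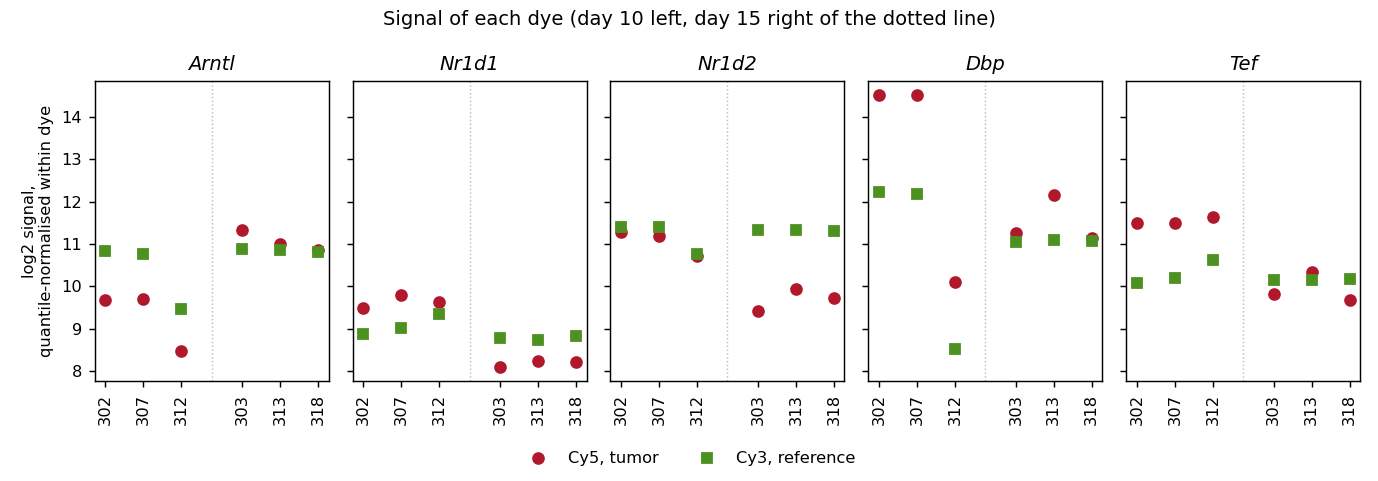
The log2 signal of each dye on the 6 arrays, after quantile normalization within the dye, for the 5 clock genes whose log2 ratios did not overlap between the days. Cy3 (squares) is level for Arntl, Nr1d2 and Tef outside the array of tumor 312, and Dbp differs between the days in both dyes.

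Markers of skeletal muscle moved between the days as well. All 10 listed markers had lower log2 ratios in every day 15 tumor than in any day 10 tumor, and 6 of 10 passed the test (limma, adjusted p). Over all genes tested, the shares were 9.14% (days without overlap, in either direction) and 0.0569%. Tnnc2, a fast muscle troponin gene that passed, had a change of -4.42. Myh4, which also passed, and Ckm and Mb, which did not, were above background in Cy5 on the 3 day 10 arrays alone. They entered the test only through that day. In the day 10 tumors the list had median log2 ratios of 4.19, 3.59 and 4.13, against 0.16, 0.08 and 0.08 in the day 15 tumors. Their summed Cy5 signal ran from 36480 to 286900 at day 10 and from 2146 to 2825 at day 15, and at day 15 between 2 and 6 of the 10 were well above background. Like Dbp, these markers had lower Cy3 signals on the day 15 slide when tumor 312 was left out, by a median of -2.45. Tumor 307 had the lowest muscle sum at day 10. Its log2 ratios were 3.13 for Dbp, 1.84 for Tef, 1.14 for Nr1d1, 0.42 for Nr1d2 and -0.56 for Arntl. In tumor 302 they were 3.11, 1.98, 0.999, 0.52 and -0.63. The part of muscle RNA in the differences of the clock genes was not tested.

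Among the other cell types, 0 markers passed the test between the days. Of 5 endothelial markers, 4 had higher log2 ratios at day 15 without overlap. The erythroid markers did so in 3 of 3, with Alas2, a gene of heme synthesis, differing by 1.17. The 5 adipocyte markers all had positive changes with a median of 1.77, and their median log2 ratio was low in tumor 312 (0.09) and tumor 318 (1.24), against at least 3.02 in the others. In tumor 312 that median is the value of Plin1, whose probe lies in the lost area, as does that of Adipoq (-0.02). Outside the area, tumor 312 had 2.69 for Fabp4, 3.255 for Lpl and -0.66 for Cidec. Fabp4 had no value in tumor 318. The median of the 8 hepatocyte and hepatoma markers lay between 2.53 and 3.98 in 5 tumors and at -0.63 in tumor 313. In that tumor Clock, Nr1d1, Nr1d2, Per2, Dbp and Tef had their highest log2 ratio of the day 15 group, and Arntl lay between its values in the other day 15 tumors. Leaving out tumor 313 gave changes between the days of -1.77 for Tef and of 1.497 for Arntl.

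Against the reference labelled blood, 5 members were higher in the tumors (limma, adjusted p under 0.05 and an absolute log2 ratio of at least 1), and 0 were lower. Of all genes tested, 25.5% were called higher and 9.76% lower by that rule. Over the 6 tumors the mean log2 ratio was 2.55 ± 0.30 (SD) for Per1, 2.30 ± 0.84 for Per2, 1.89 ± 1.06 for Dbp, 1.24 ± 0.43 for Cry2 and 1.06 ± 0.89 for Tef. The value of Per2 rests on a Cy3 signal well above background on 2 of 6 arrays. The call of Tef was the least secure: its ratio was 0.996 without background correction, 0.95 without tumor 313, 0.71 with the deposited log ratios, 0.40 with median centring and 0.22 with the mean of its probes, and under each it was not called. Arntl (0.09), Clock (0.17), Nr1d1 (0.24), Nr1d2 (-0.29) and Cry1 (-0.16) had mean log2 ratios near 0. The signs of Arntl, Clock and Nr1d1 depend on the scaling. Median centring gave -0.55 for Arntl, -0.60 for Clock and -0.14 for Nr1d1, and the deposited log ratios gave -0.33, -0.16 and -0.25. Nr1d2 and Cry1 stayed below 0, at -0.999 and -0.08 with median centring and at -0.69 and -0.50 with the deposited log ratios. No order between neighbouring members can be read, because a ratio to the reference compares each gene with itself. The scaling matters here, since median centring without loess left 3 members called higher, without Tef and Cry2 (0.94), put the median over all genes at -0.34 in place of 0.22 and moved the share of calls that were higher from 72.3% to 41.4%. With the deposited log ratios that share was 58.0%, and 4 members were called higher.

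A further list held 21 other genes of the clock and its outputs, of which 17 were tested between the days. None passed the test (limma, adjusted p), 6 of the 17 had a positive change and 1 of the 21 had days that did not overlap, Csnk1d, a kinase of PER proteins, with a change of 0.26 ± 0.14 (SE). This gene was named after its values were seen. The median change of the list was -0.15. Ciart, a repressor of the BMAL1 and CLOCK pair, had log2 ratios of 0.60, 1.23 and -0.01 against -0.70, 0.19 and -0.56, a change of -0.96 ± 0.37 (SE) with overlapping days. Nfil3, which competes with DBP and TEF for D-boxes, had 2.81, 2.98 and 0.13 against 3.11, 3.17 and 2.83. Its low value in tumor 312 came from a probe in the lost area, and without that tumor its change was 0.14. Against the reference, 5 of the 17 were called higher and 0 lower. Nfil3 had a mean log2 ratio of 2.51, Rora, an activator of Arntl, 1.77, Nampt, an output in the synthesis of NAD, 1.43 over the 5 tumors with a value, and the repressor gene Bhlhe40 1.33. Hlf, the remaining PAR bZIP gene, was the fifth, but no array had its Cy3 signal well above background, and its ratio is not given a size.

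Glucocorticoids follow a daily rhythm in mice and induce Per1, so a list of their response genes was set beside the members. Of the 9 with a probe, 0 passed the test between the days, and 6 of 9 had a positive change, with a median of 0.15. Fkbp5, a textbook target of the receptor, differed by 0.45 and Tsc22d3 by 0.10, both with overlapping days, as Per1 did. Mt2, a metallothionein gene, had log2 ratios of 3.74 and 4.28 in the day 10 tumors, followed by 2.17, 3.001 and 2.13 in the day 15 tumors, with no value in tumor 312, where its spot was marked as an outlier. Its change was -1.57 ± 0.34 (SE). Mt2 and Sgk1 were the 2 of the 9 whose days did not overlap, both lower at day 15, against 9.14% of all genes tested. Sgk1, named after its values were seen, differed by -0.40 ± 0.22 (SE), with no value in tumor 307. Errfi1, a feedback inhibitor of the EGF receptor, differed by 0.58 ± 0.26 (SE) with overlapping days. Against the reference, 6 of the 9 were called higher, among them Cebpd with a mean log2 ratio of 3.77 and Tsc22d3 with 3.27.

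Tef, the member with the largest SD among those outside the lost area, was used to find genes of like pattern over the 6 tumors. Of 12486 genes compared, 20 (0.16%) had a Pearson r of at least 0.95 with Tef and 14 (0.11%) had an r of -0.95 or lower. The highest were Tarm1 (0.987), Mus81 (0.986), Klra10 (0.982) and Klra1 (0.981). The lowest were Extl3 (-0.967), Abhd3 (-0.965), Exoc8 (-0.961) and Hbb-bt (-0.959). Some of these genes varied little. The log2 ratios of Mus81 ran from -0.10 to 0.18 and those of Extl3 from 0.70 to 0.85, against -0.06 to 1.98 for Tef. Klra1 and Klra10 belong to the Ly49 family of near-identical natural killer cell receptors, so their probes may read several genes. These correlations rest on 6 points that fall into 2 days and share slides, and they describe these tumors only.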

How the data were processed

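RNA of 6 tumors was hybridised to 2-colour arrays. Per the file headers and the submitters' processing notes, the deposited scanner output came from Agilent Feature Extraction 9.1.3.1. It holds the mean and local background intensity of each spot and dye, deposited without normalization. The deposited value table holds log10 ratios equal to the scanner's processed log ratio at every spot. In limma 3.58.1 under R 4.3.3, intensities were background-corrected (normexp, offset 50) and normalized by loess within each array. Control spots were given no weight and, like outlier spots (45 to 71 per array), left out of the fits. Spots of a probe were averaged, and all 21 member probes carried the member's name in the files and by RefSeq accession or symbol.

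Day 15 was compared with day 10 with lmFit and eBayes on 23070 probes above background in Cy5 on at least 3 arrays, 2-sided, calling an adjusted p under 0.05. The mean ratio of the 6 tumors was tested against 0 on 24250 probes that passed in Cy5 or Cy3 on 3 arrays or more, and a call also needed an absolute log2 ratio of at least 1. This leaves out the spread between samples of the kind used as reference. Without a dye swap, a probe's dye bias stays in its ratio. Signals of single dyes were quantile-normalised between arrays. The fits were tested on simulated data.

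Members, lists, motifs and the rule for named genes were chosen with earlier results of these data known. The rule took all members, listed genes past a threshold, otherwise the 2 of largest change among other clock genes and among glucocorticoid response genes, and the 4 highest and 4 lowest genes by r with 1 member. The number of arrays limits the precision. Alternatives covered background correction, centring, filter, probe choice, the lost area, single dyes and each tumor left out. No genome was used here, and promoter sequences are RefSeq's. Some promoter matches are not reported here.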

Additional observations from a re-analysis of the deposited data

Results flagged for a closer look

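On the array of tumor 312, the log2 Cy3 signal of 6 members stood far from the other 5 arrays, past Dixon's 95% limit, which chance passes for about 1 group in 20. For 4 members with a probe in the lost area the signal was low, at 9.48 for Arntl, 11.0 for Clock, 10.77 for Nr1d2 and 8.52 for Dbp. For 2 members outside the area it was high, at 8.82 for Cry2 and 10.62 for Tef. Outside the area the Cy3 signal of this array had a median log2 difference of 0.22 from the other arrays. No log2 ratio of a member stood apart in this way.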

How the results depend on the processing

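With 3 tumors a day, calls between the days were few and moved with the settings. Of 9 genes called, 1 was left when all 6 arrays had to be above background and 0 with Cy5 alone, and leaving out each tumor gave 1 to 10. For the members, 0 were called, and 1 (Nr1d2) with median centring without loess. The members whose days did not overlap, a count added after the data were seen, numbered 5, and 8 with the mean of all probes of a gene, where dim probes enter. Leaving out each tumor gave 5 to 7. The change of the positive arm against the rest, 1.88, was 1.62 with median centring, 2.09 with the deposited table, 1.53 with the mean of all probes and 2.20 with Cy5 alone. It was 1.97 with the lost area left out, where tumor 312 gives no value because both positive-arm probes lie there. Leaving out each tumor gave 1.80 to 1.99. Members called against the reference numbered 5, and 3 with median centring. Genes called in Cy3 numbered 0 to 1 as tumors were left out, the 1 without tumor 312. The causes of these shifts were not tested. No paired analysis was possible because the tumor numbers are not shared between the days. The changes of Arntl, Nr1d1, Nr1d2, Per2, Cry1, Cry2, Dbp and Tef kept their sign in all 14 alternatives. Clock and Per1 each turned once.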
